A study of Mus musculus with 6 samples.

Results

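Acss1, Emid1, Gramd1a, Tdrd5, Slc16a5, Podxl2 and Padi2 are 7 genes whose read counts were lower in every Paxbp1 conditional knockout (cKO) library than in every control library. They were picked from 22322 genes in the deposited table, of which 15349 had a count in at least 1 library and 11488 had enough counts to be tested. The choice was made on this same contrast, so the lower level of the 7 genes in cKO cells is what selected them. Their values are given as a description with no test.

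The samples were sorted CD4+CD8+ double-positive (DP) thymocytes, the stage at which a developing T cell carries both coreceptors. The labels call the 3 control libraries WT and the 3 cKO libraries Lck-KO. By the paper's methods, the controls were Paxbp1 fl/fl mice, which carry the floxed allele without Cre. The cKO mice were Paxbp1 fl/fl mice with an Lck-cre transgene. The floxed mice behind both groups were on the C57BL/6 background. The Lck promoter drives Cre in T cell precursors from the double-negative stage. Mice of both groups were untreated littermates of mixed sex, several weeks old, and the labels do not say whether each library came from a separate mouse, so p-values below measure the spread between these libraries, which may be technical.

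The 7 genes belong to different families. Acss1 encodes a mitochondrial acetyl-CoA synthetase, which joins acetate to coenzyme A. Gramd1a encodes an endoplasmic reticulum protein that moves cholesterol from the plasma membrane, and Slc16a5 encodes a member of the monocarboxylate transporter family. Padi2 encodes a peptidylarginine deiminase, an enzyme that converts arginine in proteins to citrulline. Podxl2 encodes endoglycan, a sialomucin of the CD34 family that can act as a selectin ligand. Emid1 encodes an extracellular protein with an EMI domain and collagen repeats, and Tdrd5 encodes a Tudor domain protein known for its role in the male germline.

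The genes lie on 6 chromosomes, with Emid1 and Slc16a5 both on chromosome 11. On GRCm38 with the GENCODE M21 annotation, Acss1 (ENSMUSG00000027452) spans chr2:150618105-150668500 on the minus strand, Emid1 (ENSMUSG00000034164) chr11:5106265-5152257 on the minus strand, and Gramd1a (ENSMUSG00000001248) chr7:31130127-31155896 on the minus strand. Tdrd5 (ENSMUSG00000060985) spans chr1:156255296-156303664 on the minus strand and Slc16a5 (ENSMUSG00000045775) chr11:115462474-115474398 on the plus strand. Podxl2 (ENSMUSG00000033152) spans chr6:88842558-88875044 on the minus strand and Padi2 (ENSMUSG00000028927) chr4:140906344-140952586 on the plus strand. The counted features are whole genes. All members except Emid1 overlap another annotated gene, none of which was tested, and whether counting used strand is not stated in the sources used here, so reads of such partners cannot be told apart from theirs.

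Promoter sequence from RefSeq (GRCm38.p6) is shown for 4 members with 1 to 5 GC boxes and the lowest and highest GC content, as the letters behind the comparison that follows. Each runs 5′ to 3′ on the gene's strand, ends next to the annotated start or to the first coding-transcript exon, and has capitals where a GC box (GGGCGG, or CCGCCC for the other strand) was found.
Acss1: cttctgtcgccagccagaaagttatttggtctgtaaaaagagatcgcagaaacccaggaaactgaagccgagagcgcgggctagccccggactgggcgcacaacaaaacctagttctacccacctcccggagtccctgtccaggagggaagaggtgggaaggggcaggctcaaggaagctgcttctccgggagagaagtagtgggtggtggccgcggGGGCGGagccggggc
Emid1: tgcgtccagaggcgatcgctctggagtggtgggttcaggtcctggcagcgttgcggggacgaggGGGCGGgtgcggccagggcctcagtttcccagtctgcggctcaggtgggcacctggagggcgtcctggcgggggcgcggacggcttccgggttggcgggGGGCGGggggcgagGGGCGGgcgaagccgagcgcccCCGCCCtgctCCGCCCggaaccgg
Gramd1a: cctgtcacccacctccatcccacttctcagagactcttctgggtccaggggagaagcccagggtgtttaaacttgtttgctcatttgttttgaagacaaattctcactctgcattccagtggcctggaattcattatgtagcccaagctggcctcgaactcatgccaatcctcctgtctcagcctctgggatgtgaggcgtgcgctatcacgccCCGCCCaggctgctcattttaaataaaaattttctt
Podxl2: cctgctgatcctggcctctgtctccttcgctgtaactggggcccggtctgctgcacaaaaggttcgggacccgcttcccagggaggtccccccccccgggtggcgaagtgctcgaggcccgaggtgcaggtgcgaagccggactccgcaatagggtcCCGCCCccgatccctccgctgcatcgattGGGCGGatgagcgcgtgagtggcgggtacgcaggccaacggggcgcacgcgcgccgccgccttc

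The Acss1 stretch is chr2:150668259-150668490, the Emid1 stretch chr11:5152258-5152480, the Gramd1a stretch chr7:31151172-31151421 and the Podxl2 stretch chr6:88875047-88875296, all on the minus strand. The Acss1 and Gramd1a stretches lie within the GENCODE bounds of their own genes, and 153 bases of the first and all 250 of the second lie in noncoding exons. Tdrd5 has no stretch to show because its 250 bases lie in exons of a coding transcript. Slc16a5 was not matched to a promoter, so 6 of the 7 genes were compared. Over the 250 bases before the start, Gramd1a had the lowest GC content, and the others ran from 61.6% in both Acss1 and Padi2 through 70.4% in Podxl2 and 75.2% in Tdrd5 to 77.6% in Emid1. The 6 windows therefore spread from the 15.4th percentile of promoters of tested genes, Gramd1a, to the 96.2nd, Emid1. The Gramd1a window precedes RefSeq start 31151171, while the gene begins at 31155896 in GENCODE, so the lowest value comes from sequence inside the gene.

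A GC box was present in 5 of the 6 promoters, against 33.0% of all 27018 promoters and 59.7% of the 9151 promoters of tested genes. Tdrd5, whose window lies in exons of a coding transcript, was the member without one. An ETS core (GGAAG, either strand) was present in Acss1, Emid1, Podxl2 and Padi2, against 68.7% of promoters of tested genes. An E-box (CANNTG) was present in Emid1, Gramd1a and Podxl2 (56.6% of tested-gene promoters), and CCAAT in Gramd1a, Podxl2 and Padi2 (37.7%). Motifs that factors of thymocytes bind were searched as well. The RUNX letters TGTGGT were in 0 of the 6 windows and in 10.6% of tested-gene promoters. The ROR letters AGGTCA were in 0 of the 6 and in 10.4%. The TCF letters CTTTGA were in 0 of the 6 and in 10.7%, and the TATA box letters TATAAA in 0 of the 6 and in 6.21%. These matches describe letters in 1 window per gene and are not binding sites. More than 1 window was available for Emid1 (2) and Podxl2 (3), and the values above come from 1 of them for each gene.

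Library totals ran from 18963775 to 26252248 counts, which makes a single count equal to 0.0381 to 0.0527 CPM (counts per 1000000). Levels below are CPM on library sizes adjusted by TMM, a scaling that offsets differences in library composition. Paxbp1 itself had 774, 318 and 400 counts in the control libraries and 851, 905 and 1075 in the cKO libraries. The groups overlapped once scaled to library size (log2 fold change 0.92, SE 0.33, edgeR adjusted p = 0.0977). Whole-gene counts do not measure the deleted exon, so this value does not check the labels.

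Acss1 had 173, 192 and 169 CPM in control libraries 1 to 3 and 79.0, 78.3 and 64.9 CPM in cKO libraries 1 to 3. The groups were far apart, and the highest cKO library lay 2.14-fold below the lowest control library. The mean was 178 ± 12.2 CPM in control and 74.1 ± 7.95 CPM in cKO cells (mean ± S.D., n = 3), a log2 fold change of -1.27 with a standard error of 0.13, and cKO cells held 41.6% of the control level.

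Slc16a5 was the most abundant member. It had 349, 428 and 335 CPM in control and 170, 174 and 145 CPM in cKO libraries, with no overlap (log2 fold change -1.18, SE 0.13). The control spread, 371 ± 50.5 CPM, was wider than the cKO spread, 163 ± 15.6 CPM.

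Gramd1a had 280, 289 and 260 CPM in control and 122, 114 and 83.5 CPM in cKO libraries. Its cKO libraries were the most spread of the 7 genes relative to their mean, with a coefficient of variation of 19.2% against 5.29% in control, and cKO library 3 was the low one. The log2 fold change was -1.37 (SE 0.15).

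Emid1 had 62.8, 58.0 and 59.7 CPM in control and 24.9, 23.8 and 22.1 CPM in cKO libraries. Both groups were tight, at 60.1 ± 2.42 and 23.6 ± 1.42 CPM, and the log2 fold change was -1.35 (SE 0.14).

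Tdrd5 had 186, 201 and 157 CPM in control and 73.3, 86.1 and 81.0 CPM in cKO libraries. It had the narrowest separation of the 7, with the highest cKO library at 55.0% of the lowest control library, and the log2 fold change was -1.18 (SE 0.13). Here cKO library 1, rather than library 3, was the lowest.

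Podxl2 and Padi2 had the fewest counts. Podxl2 had 22.4, 19.8 and 25.2 CPM in control and 6.80, 7.08 and 6.28 CPM in cKO libraries, which rest on 136 to 149 counts each. It had the largest fold of the 7 (log2 fold change -1.74, SE 0.20) and kept 29.9% of the control level. Padi2 had 36.7, 43.1 and 49.3 CPM in control and 16.8, 15.6 and 15.6 CPM in cKO libraries (log2 fold change -1.43, SE 0.17). For both genes the cKO libraries differed by less than counting error alone would give, with coefficients of variation of 6.07% and 4.14% against counting values of 8.44% and 5.46%.

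**Figure D1:**
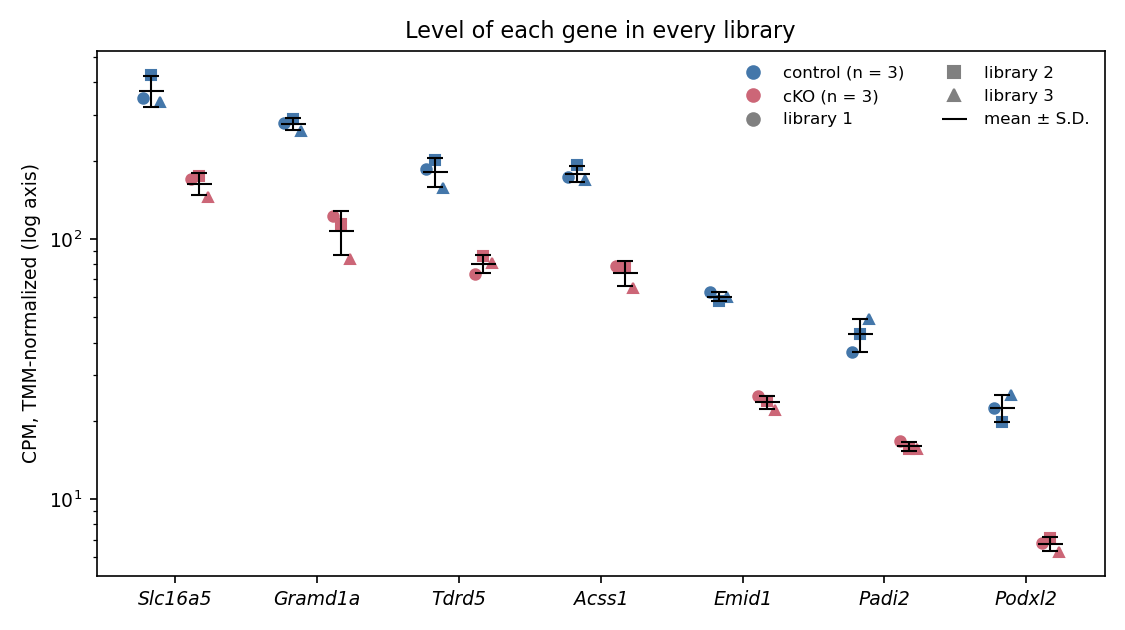
Level of each of the 7 genes in each library in CPM on a log axis, with control and cKO libraries as points and the group mean and S.D. (n = 3) as bars. Every cKO point lies below every control point, from Slc16a5 at 335 to 428 CPM in control libraries to Podxl2 at 6.28 to 7.08 CPM in cKO libraries.

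As a group, the 7 genes summed to 1110, 1232 and 1055 CPM in control and 493, 499 and 419 CPM in cKO libraries. The median log2 fold change was -1.35, with a range of -1.74 to -1.18, beside 0.00 over all genes tested. cKO library 3 was the lowest cKO library for 5 of the 7 genes and the highest for 0, and relative to the control mean the median member stood at 41.4%, 41.4% and 36.4% in cKO libraries 1, 2 and 3.

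The level per length was compared in the deposited FPKM (fragments scaled to gene length and library size). In control cells the order was Slc16a5 (212 ± 28.7), Gramd1a (109 ± 6.49), Tdrd5 (54.1 ± 6.56), Acss1 (48.9 ± 3.30), Emid1 (33.6 ± 2.22), Podxl2 (11.0 ± 1.31) and Padi2 (8.94 ± 1.19), each as mean ± S.D. of 3 libraries. The order was the same in cKO cells, from 93.8 ± 11.5 for Slc16a5 to 3.37 ± 0.142 for Padi2. In both groups the libraries of Tdrd5 and Acss1 overlapped, as did those of Podxl2 and Padi2, and the other neighbours in the order did not overlap. Among tested genes, control FPKM placed Slc16a5 at the 96.7th percentile and Padi2 at the 42.1st, so the members span abundant and middling genes.

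Separation of the groups is common in this table. Every cKO library lay below every control library for 1987 tested genes (17.3%) and above for 1809 (15.7%), and the 7 genes are among the first by choice. A log2 fold change beyond 1 with an edgeR adjusted p below 0.05 was found for 317 genes (2.76%). The gap between the lowest control and the highest cKO library, in log2 CPM, was 1.47 for Podxl2, 1.22 for Emid1, 1.13 for Padi2, 1.10 for Acss1, 1.09 for Gramd1a, 0.94 for Slc16a5 and 0.86 for Tdrd5, beside a median of 0.19 over the 1987 genes. By this gap Podxl2 ranked 12 and Tdrd5 66. At least as large a fold reduction as that of Tdrd5 was found in 239 genes, of which 88 had a mean of 5 CPM or more. Of these 88, the groups did not overlap in 83 and overlapped in 5. Nearest to separation among the 5, and still clearly overlapping with gaps of -0.61 and -0.67, were the hemoglobin genes Hba-a2, with 9.13, 41.6 and 20.2 CPM in control and 0, 10.8 and 13.9 CPM in cKO libraries, and Hbb-bs, with 8.97, 52.5 and 18.9 CPM in control and 0.32, 12.9 and 14.3 CPM in cKO libraries. Their log2 fold changes were -1.52 and -1.55.

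**Figure D2:**
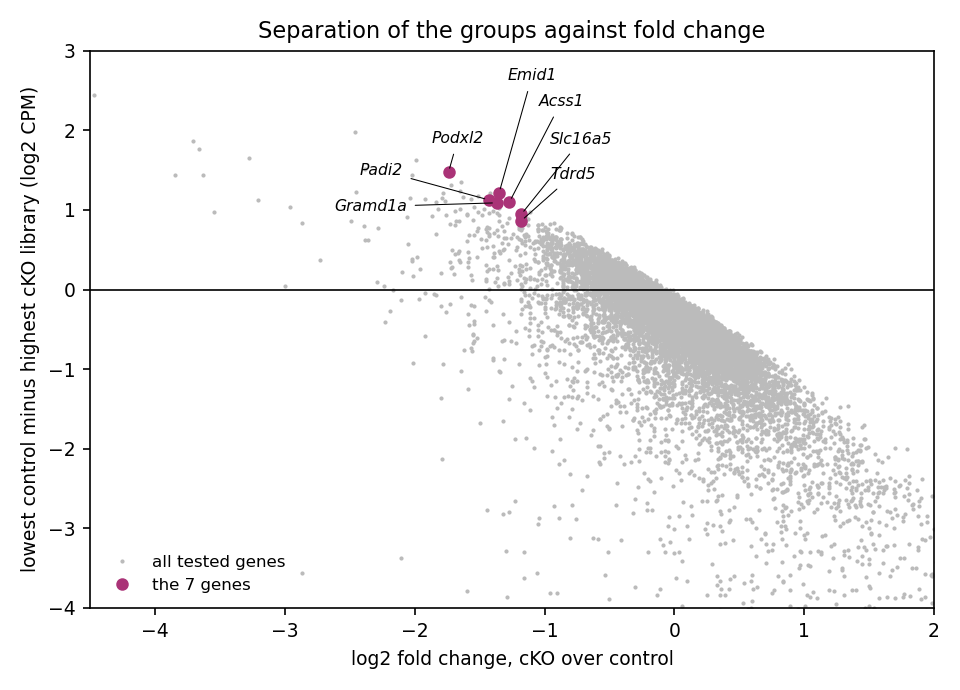
Gap between the lowest control and the highest cKO library (log2 CPM) against the log2 fold change for genes tested, with the 7 members marked. A gap above 0 means that the groups did not overlap, the members lie at gaps of 0.86 to 1.47, and 215 genes lie outside the axes.

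The genes whose profile over the 6 libraries was nearest to that of Acss1 were named by the root mean square difference of log2 CPM, each gene centred on its control mean. Slc16a5 was nearest of all, at 0.08. Outside the 7 genes the nearest were Ypel3, Ppp1r13b and Chst10 at 0.11, Rasal3 at 0.12 and Acaa1a at 0.13, with log2 fold changes of -1.20 to -1.16. Podxl2 stood farthest from Acss1, at 0.36, and 201 non-members lay closer. Among non-members, nearest to the mean profile of the 7 genes were Lypd6b and F13a1 at 0.14 and Ppp1r13b, Syngr1 and Ddit4 at 0.15. Their log2 fold changes were -1.40 to -1.19. Emid1 was the nearest member, at 0.06. Each member is part of that mean, so its distance cannot be compared with those of non-members.

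The relatives of the 7 genes were then counted, in lists of 129 genes by family or pathway. Of these, 79 were tested and 8 passed edgeR's quasi-likelihood test at a Benjamini-Hochberg adjusted p below 0.05, or 10.1%, against 10.4% of all genes tested. Of the 8, 6 fell (7.59% against 5.89% of all genes) and 2 rose (4.47% of all genes). The median log2 fold change of the relatives was -0.08. A share of relatives near the background is no result about them. DESeq2 and limma-voom each called 10 relatives, while calling 16.9% and 11.5% of all genes. The edgeR count depended on every library, at 13 without control library 1, 3 and 2 without control libraries 2 and 3, and 2 and 4 without cKO libraries 1 and 2. With cKO library 3 left out, 0 of the 81 relatives then tested passed edgeR's adjusted test and 14 had an unadjusted p under 0.05.

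Among 21 tested genes of acetyl-CoA formation and use, 1 rose and 1 fell. Acss2, the cytosolic and nuclear counterpart of Acss1, had 82.6, 87.2 and 64.6 CPM in control and 47.2, 39.2 and 38.8 CPM in cKO libraries. It fell by 0.90 on the log2 scale (SE 0.16, edgeR adjusted p = 0.00915), and the adjusted p was 0.0627 without cKO library 3. Dld, a subunit shared by the mitochondrial dehydrogenase complexes, rose from 101 ± 4.58 to 134 ± 7.42 CPM (edgeR adjusted p = 0.0451), a call lost in 7 of the settings tried. Over the list the median log2 fold change was -0.18. The third acyl-CoA synthetase short chain family gene, Acss3, was at 0 in all libraries.

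Among 8 tested monocarboxylate transporter and related genes, Slc16a6 fell. It had 42.7, 46.1 and 55.3 CPM in control and 29.2, 21.5 and 20.7 CPM in cKO libraries, a log2 fold change of -1.01 (SE 0.18, edgeR adjusted p = 0.00993, and 0.0678 without cKO library 3). Slc16a1, the abundant lactate transporter of this family, was at 491 ± 22.0 and 463 ± 9.33 CPM (log2 fold change -0.08, edgeR adjusted p = 0.635). Slc16a3, known from glycolytic cells, was at 1.63 and 3.30 CPM (edgeR adjusted p = 0.323). Of the 8 genes, 0 rose by edgeR, DESeq2 or limma-voom and 1 was higher at an unadjusted p under 0.05, and their median log2 fold change was -0.07.

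Of the other PADI genes, 2 were tested. Padi4, the deiminase known for histone citrullination, had 20.7, 33.2 and 24.0 CPM in control and 13.6, 17.1 and 12.4 CPM in cKO libraries. It fell by 0.86 on the log2 scale (SE 0.23, edgeR adjusted p = 0.0397), a call lost in 5 of the 6 fits that left out a library (0.0502 to 0.156). Padi3 was at 1.12 and 0.924 CPM (edgeR adjusted p = 0.837), and Padi1 had 1 to 14 counts per library and was not tested.

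The 21 tested GRAM domain and sterol transfer genes held 0 that rose by edgeR and 2 that fell. In the higher direction, 1 had an unadjusted p under 0.05, DESeq2 called 0 and limma-voom called 1. Esyt2, which tethers the endoplasmic reticulum to the plasma membrane, went from 177 ± 25.4 to 114 ± 8.57 CPM (edgeR adjusted p = 0.0188), and Npc2, which hands over lysosomal cholesterol, from 164 ± 12.6 to 122 ± 2.28 CPM (edgeR adjusted p = 0.0400). Gramd1b and Gramd1c, the nearest relatives of Gramd1a, were at 6.49 ± 1.42 and 4.39 ± 0.240 CPM and at 11.2 and 11.2 CPM in control and cKO cells, with edgeR adjusted p of 0.269 and 0.996. Of 15 tested sialomucin and selectin ligand genes, the sialomucin gene Cd164 fell from 928 ± 21.2 to 688 ± 37.3 CPM (edgeR adjusted p = 0.0261), and the galactosyltransferase gene B4galt1 rose from 69.4 ± 2.40 to 104 ± 20.1 CPM (edgeR adjusted p = 0.0375). Esyt2 and B4galt1 were lost in 4, and Npc2 and Cd164 in 5, of the 6 fits that left out a library. Podxl, the relative after which Podxl2 is named, was at 0.350 and 0.433 CPM, and Cd34, the founding gene of that family, had counts in 1 library and was not tested. In the order of these lists, the median log2 fold changes were -0.06 and 0.09.

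The remaining families had few genes with enough counts to test. Of 24 Tudor domain and piRNA pathway genes 7 were tested and 0 passed by edgeR, while 3 had an unadjusted p under 0.05, DESeq2 called 1 and limma-voom called 0. Tdrd3, which was tested, was at 25.7 CPM in control and 26.2 CPM in cKO cells, and Tdrd1, Tdrd9, Tdrd12 and Mael were at 0 in all libraries. Of 12 EMI domain genes 5 were tested and 0 passed by edgeR, DESeq2 or limma-voom or at an unadjusted p under 0.05, with Emilin1 at 55.5 ± 9.10 and 49.4 ± 3.47 CPM (edgeR adjusted p = 0.524). Here the median log2 fold changes were -0.31 and 0.23. Tdrd7 and Emilin2 had at most 27 and 14 counts in a library and were not tested.

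**Figure D3:**
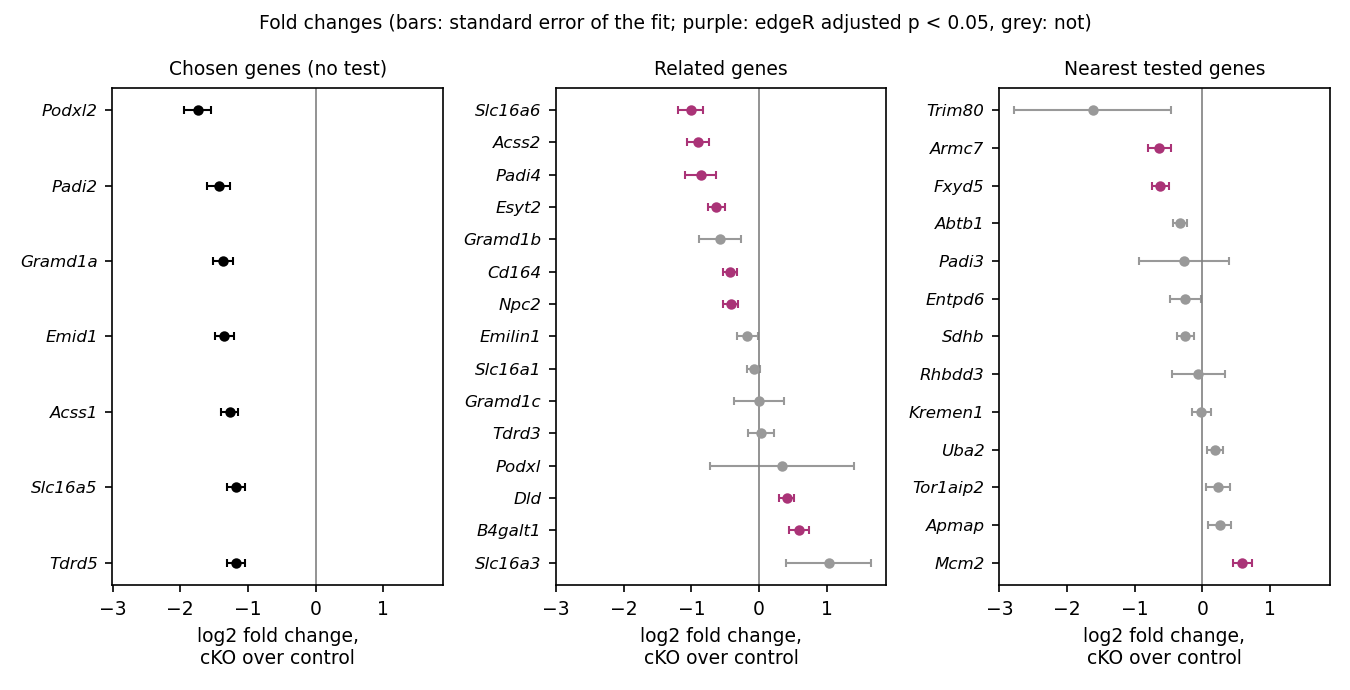
Log2 fold change (cKO minus control) on the x axis, with its standard error, for the 7 genes, their named relatives and their tested neighbours on the chromosome (1 neighbour is not drawn), 1 gene a line. The members lie from -1.74 to -1.18, and the relatives that passed the test lie from -1.01 to 0.59.

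Of the nearest tested genes on either side of the 7 members, 4 of 14 passed (28.6%, against 10.4% of all genes), 3 of them lower and 1 higher in cKO cells. Not all are adjacent, as distances ran from 171 bases, Rhbdd3, to 2984791 bases, Uba2 beside Gramd1a. Fxyd5, 87645 bases from Gramd1a, went from 119 ± 14.3 to 77.3 ± 7.07 CPM (edgeR adjusted p = 0.0201), and Armc7, 1268 bases from Slc16a5, from 129 ± 30.8 to 82.5 ± 6.43 CPM (edgeR adjusted p = 0.0440). Mcm2, a subunit of the replicative helicase that lies 8429 bases from Podxl2, rose from 404 ± 62.7 to 607 ± 79.4 CPM (log2 fold change 0.59, edgeR adjusted p = 0.0302). The nearest neighbours of Acss1 and Emid1, Apmap at 9537 bases and Rhbdd3 at 171 bases, did not pass, at 0.26 and -0.06 on the log2 scale (edgeR adjusted p of 0.350 and 0.945). Of the other neighbours, Entpd6, Kremen1, Uba2, Tor1aip2, Trim80, Abtb1, Padi3 and Sdhb, 0 passed by edgeR. Over the 14, 5 had an unadjusted p under 0.05, DESeq2 and limma-voom each called 4, and the median log2 fold change over the 14 was -0.25. Without cKO library 1, or without cKO library 3, 0 of the 14 passed edgeR's adjusted test, and 6 and 4 had an unadjusted p under 0.05.

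The libraries were checked for the labelled cell type. All 14 DP thymocyte markers were tested and summed to 22397 to 25229 CPM in control and 17076 to 19261 CPM in cKO libraries, with a median log2 fold change of -0.39. Of these 14, 5 fell by edgeR, against 5.89% of all genes. Among the 5 were Rag1, which cuts the antigen receptor genes, and Bcl11b, a T lineage factor (lower by 0.85 and 0.84 on the log2 scale, edgeR adjusted p of 0.00923 and 0.00613). A rise was found in 0 of the 14 by edgeR, DESeq2 or limma-voom or at an unadjusted p under 0.05. Without cKO library 3, 0 of the 14 passed edgeR's adjusted test and 6 had an unadjusted p under 0.05, and the count ran from 2 to 9 when another library was left out. Of 20 macrophage markers, 15 were tested and 7 of these rose by edgeR, against 4.47% of all genes. A fall was found in 0 of the 15 by edgeR, DESeq2 or limma-voom or at an unadjusted p under 0.05. The sum of the 20 ran from 23.0 to 42.3 CPM in control and 75.3 to 107 CPM in cKO libraries, with Mertk at 0 in all of them. The complement gene C1qb was at 1.35 and 8.80 CPM (edgeR adjusted p = 0.00880). Without cKO library 3, 1 macrophage marker passed, and 4 without cKO library 1. Dendritic cell markers also summed to more in cKO libraries (16.6 to 31.6 CPM in control, 44.1 to 61.3 CPM in cKO). In the same order of groups, erythroid markers ran from 28.6 to 142 and 2.47 to 48.8 CPM, and the B cell markers from 949 to 1301 and 876 to 914 CPM. Only 4 of the 10 B cell markers had enough counts to be tested. Of these 4, 1 was called lower by edgeR and 2 were above 0, with a median log2 fold change of 0.30 (-0.70 to 1.04). Markers of the double-negative and immature single-positive stages summed to 784 to 1042 and 954 to 1072 CPM. The 11 tested were split, with 6 above 0, a median log2 fold change of 0.07 and a range of -0.93 to 2.79. By edgeR, DESeq2 or limma-voom 0 fell. By edgeR 3 of the 11 rose, against 4.47% of all genes (DESeq2 and limma-voom also called 3 higher). These were Hes1, a Notch target (7.83 ± 2.14 to 54.1 ± 19.8 CPM, log2 fold change 2.79, edgeR adjusted p = 0.00349), Il2ra, the interleukin receptor chain CD25 (6.27 ± 1.55 to 14.8 ± 3.06 CPM, edgeR adjusted p = 0.0212), and Dtx1, another Notch target (7.37 ± 0.671 to 14.2 ± 1.82 CPM, edgeR adjusted p = 0.0287). Without control library 3, cKO library 1 or cKO library 3, 1 marker of this list was called higher. The fit without control library 1 called 1 of the 12 then tested lower. Markers of mature single-positive cells ran from 904 to 1028 and 819 to 1431 CPM. Of the 10 tested, 4 had a log2 fold change above 0, the median was -0.16 and the lowest -1.03. Cd69 alone was called higher (edgeR adjusted p = 0.0344), with its groups overlapping. By edgeR 0 fell, and 2 were lower at an unadjusted p under 0.05. Without control library 2 or 3, or cKO library 1 or 3, 0 of this list were called higher by edgeR. In each of those fits 1 was higher at an unadjusted p under 0.05. Leaving out control library 1 gave 1 lower call among the 11 then tested. Markers of natural killer and innate T cells ran from 185 to 294 and 332 to 378 CPM, with the granzyme gene Gzma called higher (edgeR adjusted p = 0.00825). Of the 5 tested, 3 had a log2 fold change above 0, with a median of 0.40 and a range of -0.72 to 1.41. In the lower direction edgeR called 0, DESeq2 called 1 and 1 had an unadjusted p under 0.05. Without cKO library 3, 0 of the 6 then tested passed edgeR's adjusted test and 2 had an unadjusted p under 0.05. Thymic epithelial markers ran from 41.9 to 46.8 and 46.4 to 48.6 CPM, with Krt5 at 0, and neutrophil markers from 4.11 to 4.36 and 2.31 to 5.84 CPM, with Ly6g at 0. The part of these cells in the values of the 7 genes was not tested. In bulk samples, fewer cells of a type and less RNA per cell cannot be told apart.

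**Figure D4:**
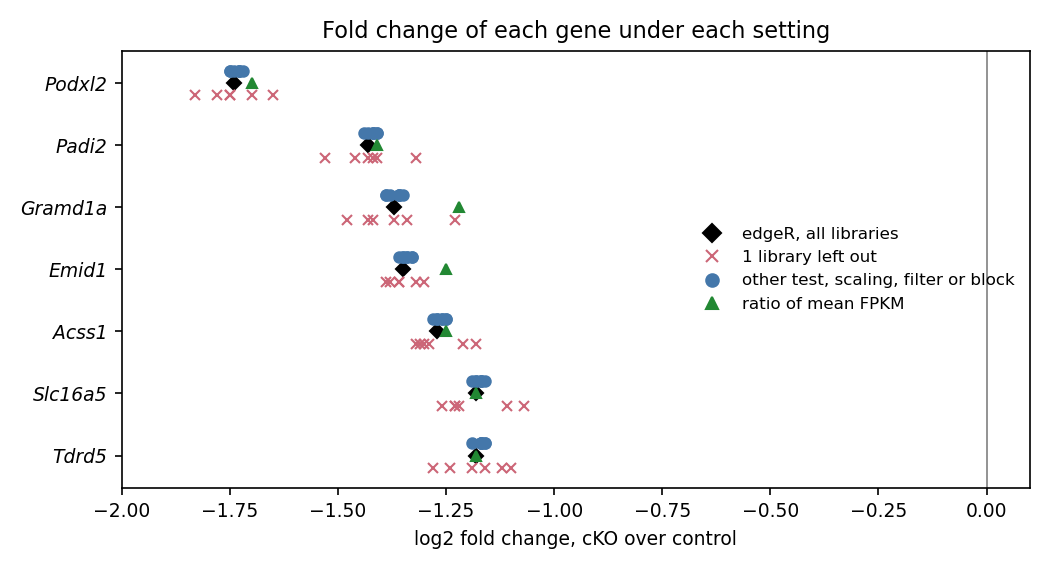
Log2 fold change of each of the 7 genes on the x axis under edgeR with all libraries and the 14 other settings tried, 1 gene a line. The values stay between -1.83 for Podxl2 and -1.07 for Slc16a5.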

How the data were processed

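RNA of sorted DP thymocytes was amplified and sequenced (HiSeq2500), 3 control and 3 Paxbp1 cKO libraries. The authors deposited whole-number read counts and FPKM per gene and library. The submitters' processing notes name fastp 0.18.0, Bowtie2 2.2.8, HISAT2, StringTie and RSEM, without their roles. For the genome build, the annotation and strand, the sources used here give nothing. The amplification kit differs between the labels and the methods. The authors also deposited group means, log2 fold changes, p-values and FDR of their own comparison, which were not used.

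Counts were fitted with edgeR 4.0.16 in R 4.3.3 (quasi-likelihood test, TMM scaling, genes kept by filterByExpr at 10 counts per library and 15 in total, Benjamini-Hochberg adjustment over all 11488 genes tested). Fold changes are cKO over control, and CPM are counts per 1000000 of the TMM-adjusted library size. The standard error (SE) of a fold change was derived from the test. It is the absolute log2 fold change over the square root of the quasi-likelihood F statistic. Positions come from GENCODE M21 by Ensembl ID (22267 genes matched), and promoters from RefSeq. Alternatives were DESeq2 1.42.0, limma-voom (limma 3.58.1), RLE scaling, total counts alone, no filter, a mean of 5 CPM, the ratio of mean FPKM, a replicate block and leaving out each library. Leave-one-out counts of marker genes and counts at an unadjusted p are later additions, chosen with the data in view. The edgeR step was tested on simulated counts with known fold changes.

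The 7 genes and all gene lists were chosen with earlier results of these data known. Named besides the members were family relatives, the nearest tested gene on each side, and the 5 genes nearest in profile. The values of 1 neighbouring gene are not reported here, although it is in the counts of neighbours. Genes just outside the threshold, and the examples among marker genes, were chosen after their values were seen. Same-numbered libraries did not deviate together (correlations 0.0451, 0.0377 and -0.0300), so the numbers were not used as pairs. No pair of libraries within a group agreed within sampling noise. Precision at low counts is limited by counting error.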

Additional observations from a re-analysis of the deposited data

How the results depend on the processing

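The median log2 fold change of the 7 genes, -1.35, ran from -1.39 to -1.23 over the settings tried (DESeq2, limma-voom, other scalings, no filter, a higher filter, the ratio of mean FPKM, a replicate block and leaving out a library), and Emid1 moved to -1.25 by the ratio of mean FPKM. With the replicate block the median was -1.35, and 1238 of all genes passed, against 1191 without it, 9 relatives and 4 neighbours. DESeq2 called 1940 genes (953 higher, 987 lower). Leaving out a library gave 120 genes (without cKO library 3) to 2030 (without control library 1), 73 to 454 with a log2 fold change beyond 1 (317 in the main fit), 0 to 13 relatives and 0 to 4 neighbours. The count of all genes moved by over 1.5 times whichever library was left out, to 413 and 636 without control libraries 2 and 3 and to 465 and 745 without cKO libraries 1 and 2. Neighbour calls fell to 0 without cKO library 1 as well as without cKO library 3. The cause was not tested. Uncalled genes near 0 changed sign. When a library was left out, Gramd1c ran from -0.25 to 0.55 (-0.01 with no filter), Tdrd3 from -0.12 to 0.15 (0.00 with limma-voom), Podxl from -0.10 to 1.93, Padi3 from -0.55 to 0.00, Kremen1 from -0.11 to 0.11 and Rhbdd3 from -0.19 to 0.15. At the depth here, the lowest member level, 136 counts, limits what Podxl2 can show.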
